A study of Capra hircus with 12 samples.

Results

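The follicles of the cashmere undercoat, called secondary hair follicles, were compared between telogen, their resting phase, and catagen, the regression phase before it. The comparison used 8 of the 12 RNA-seq libraries of a study of goats (Capra hircus) aged 1.5 years: the 4 whose titles name telogen, from February and March, against the 4 whose titles name catagen, from November and December. Every month had 1 female and 1 male library, and the remaining 4 libraries, from anagen, the growth phase, in May and September, entered the model only to estimate the spread. No strain, genotype or treatment is given for any group, so the labels separate telogen from catagen by month alone, and season and hair cycle phase cannot be told apart. The replicates are described as a male and a female in each month; whether the same animals were sampled in several months is not given, so a p-value here reflects only how far these libraries spread, which may be technical in part.

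In catagen the growing lower follicle regresses by apoptosis and the dermal papilla is drawn up toward the bulge. In telogen the stem cells of the bulge and the hair germ stay quiet, held back by BMP and FGF signals from the niche, until Wnt and other activating signals restart growth. The genes described here are therefore ordered by role: transcription regulators first, then receptors, secreted ligands and their antagonists, matrix and proteases, and last the markers of the cell types that whole follicles contain.

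Each gene has 1 value per library, on the scale the depositors headed TPM and given here without a unit. Values in catagen are always listed as November female, November male, December female and December male, and values in telogen as February female, February male, March female and March male. Changes are differences of log2(value + 1), telogen minus catagen, called log2 below; adding 1 understates the change of genes with low values. A gene rose or fell if limma's moderated test over all 16095 genes tested gave an adjusted p under 0.05.

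By that test 3948 genes rose in telogen (24.5% of those tested) and 3063 fell (19%). In 3197 genes (19.9%) all 4 telogen libraries lay above all 4 catagen libraries, and in 2561 (15.9%) all 4 lay below. A rise reached 2-fold in 352 genes and a fall reached 2-fold in 451. The larger number of rises turned under other settings: quantile normalization gave 3145 rises and 3183 falls, and a filter of 5 in 4 libraries 2769 and 2998. The median change over all genes tested was 0.07 log2. Telogen stood outside the 4 anagen libraries too for 2164 of the genes that rose (54.8%) and 1991 of those that fell (65%).

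Of the 4 telogen libraries the March male lay nearest catagen, and of the 4 catagen libraries the November female lay farthest from telogen. On the first principal component (52.1% of the variance) the March male scored 22.97 and the other telogen libraries 52.37 to 56.4, while the November female scored -35.74 and the other catagen libraries -11.81 to -6.82. The March male held the highest telogen value in 75.5% of the genes that fell and the lowest in 47.9% of those that rose. The November female held the highest catagen value in 76.8% of the genes that fell and the lowest in 56.2% of those that rose. Ribosomal protein transcripts made up 20.9 to 25.1% of the signal in catagen and 12.8 to 17.9% in telogen, mitochondrial transcripts 2.07 to 3.51% and 4.63 to 11.8%, and both extremes nearest catagen were the March male. Leaving out the March male and the November female together gave 3479 rises and 2899 falls. February alone against the 4 catagen libraries gave 3653 and 2890, and March alone gave 1665 and 1448.

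The direction of change moved with the genomic span of a gene and with its level. In the quintile of genes with the longest span 34.8% rose and 7.42% fell, and in the shortest quintile 19.9% rose and 26.2% fell. In the quintile with the lowest mean level 30.5% rose and 2.76% fell, and in the highest quintile 20% rose and 31.3% fell. Genes near 0 in catagen have little room to fall. Genes above 0 numbered 18637 to 19276 in the catagen libraries and 19442 to 20099 in the telogen libraries, and the part of this in the pattern by level was not tested. Subtracting the span trend from each library left 3096 rises and 3513 falls. Of the genes named below, CD47, CDH1, COL12A1, ENG, FGF12 and GRHL1 lost their calls after this subtraction.

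**Figure D1:**
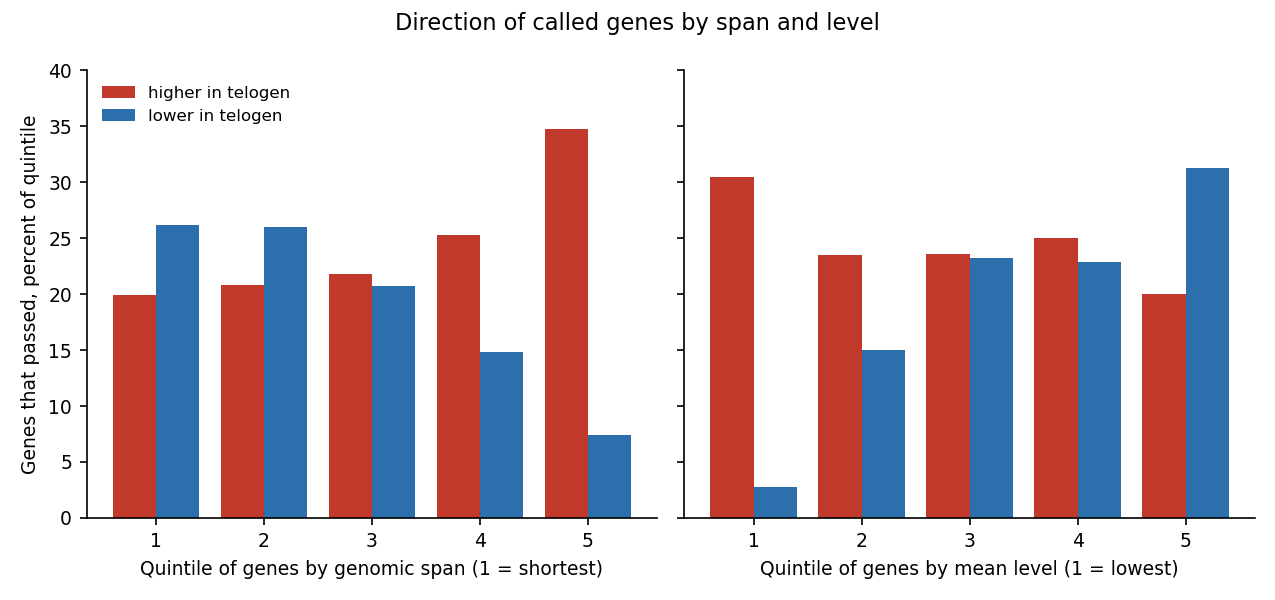
Share of genes that rose (red) or fell (blue) in telogen, as percent of each quintile of the 16095 genes tested, by genomic span (left) and by mean level over the 8 libraries (right). Rises become more frequent toward long genes, from 19.9 to 34.8%, and falls more frequent toward high levels, from 2.76 to 31.3%.

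The largest changes outside ribosomal and mitochondrial genes are described first, 15 in each direction. All 30 were picked among genes without overlap between telogen and catagen, so the same sign in females and in males was fixed by that choice. In 27 of them (13 rises and 14 falls) telogen also lay outside the 4 anagen libraries. None lost its call in any of 19 alternative analyses. The rises included surface and secreted proteins of stratified epithelium. S100A7A (gene 102173556), an S100 calcium-binding protein, had 0.91, 0.46, 0 and 0.41 in the catagen libraries and 7.92, 1.47, 21.1 and 10.7 in the telogen libraries. It rose by 2.63 log2 (SE 0.523, adjusted p = 0.00221), from near 0, with the February male as the lowest telogen library at 1.47; anagen, at a mean of 276, was far above both stages. SPRR4 (gene 106504023), a small proline-rich protein of the cornified envelope, had 35.8, 63.1, 37.05 and 47.7 in the catagen libraries and 383, 222, 538 and 71.7 in the telogen libraries. SPRR4 rose by 2.40 log2 (SE 0.458, adjusted p = 0.0018), with a change of 3.60 log2 in females and 1.19 in males. MMP7 (gene 102173210), the epithelial protease matrilysin, had 2.87, 5.31, 3.78 and 5.89 in the catagen libraries and 23.5, 14.4, 35.97 and 10.3 in the telogen libraries. It rose by 1.90 log2 (SE 0.304, adjusted p = 0.000806), again more in females (2.81) than in males (1.00); the difference between the sexes did not pass for any gene named here except where stated.

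KLK6 and KLK14, serine proteases of the kallikrein family, were also among the 15. KLK6 had 8.68, 9.82, 12.9 and 14.2 in the catagen libraries and 33.4, 31.9, 69.2 and 36.4 in the telogen libraries and rose by 1.77 log2 (SE 0.26, adjusted p = 0.000559), and KLK14 had 4.67, 7.33, 8.34 and 7.05 in the catagen libraries and 17.1, 20.3, 19.6 and 17.9 in the telogen libraries and rose by 1.35 log2 (SE 0.141, adjusted p = 0.000153). KLK14 was among the most even rises, with telogen values between 17.1 and 20.3 and none above 8.34 in catagen. VWC2 (gene 102174455), which encodes the secreted BMP antagonist brorin, had 87.5, 109, 132 and 119 in the catagen libraries and 381, 512, 423 and 222 in the telogen libraries. It rose by 1.72 log2 (SE 0.231, adjusted p = 0.000437) and stood above every catagen and anagen library, the March male being the lowest of telogen at 222. ACPP, an acid phosphatase, had 396, 468, 605 and 487 in the catagen libraries and 1223, 1679, 922 and 1516 in the telogen libraries and rose by 1.43 log2 (SE 0.195, adjusted p = 0.000458). It was 1 of 7 among the 15 largest rises whose change was larger in males than in females (1.74 against 1.12). S100A11, another S100 protein, had 317, 338, 386 and 308 in the catagen libraries and 993, 1185, 1033 and 541 in the telogen libraries and rose by 1.42 log2 (SE 0.216, adjusted p = 0.000611). SH3BGRL3, a small protein of the thioredoxin fold, had 115, 125, 125 and 101 in the catagen libraries and 396, 346, 386 and 156 in the telogen libraries and rose by 1.37 log2 (SE 0.243, adjusted p = 0.00128). In both, the March male was the telogen library nearest catagen. Smaller in level, CD177, a surface glycoprotein best known from neutrophils, rose by 1.45 log2 (adjusted p = 0.000166) and PTCHD3, a patched-domain protein, rose by 1.47 log2 (adjusted p = 0.000116). PROX2, a homeobox factor, rose by 1.35 log2 (adjusted p = 0.000389); PSMD10, a chaperone of proteasome assembly, rose by 1.52 log2 (adjusted p = 0.000376). FAM216B rose by 1.76 log2 (adjusted p = 0.000116) and C15H11orf65 rose by 1.40 log2 (adjusted p = 0.000116), both of little described function.

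The 15 largest falls were short genes, with a median genomic span of 3.14 kb against 20.7 kb over all genes tested and 8.04 kb over the 15 largest rises. In all 15 the change was larger in females than in males and the March male was the highest telogen library; in 13 the November female was the highest of catagen. MT4 (gene 108637968), a metallothionein of stratified epithelium, had 2875, 962, 1182 and 1741 in the catagen libraries and 188, 310.0, 85.9 and 642 in the telogen libraries. It fell by 2.69 log2 (SE 0.51, adjusted p = 0.00171), by 3.85 log2 in females and 1.53 in males. S100A2 (gene 102189534), an S100 protein of basal keratinocytes, had 1642, 538, 496 and 704 in the catagen libraries and 145, 196, 99.5 and 342 in the telogen libraries and fell by 2.07 log2 (SE 0.426, adjusted p = 0.0026). For MT4 and S100A2 the March male reached 642 and 342. S-LZ, a lysozyme, fell by 1.99 log2 (SE 0.382, adjusted p = 0.00183); ruminants carry several similar lysozyme genes, and how reads were divided among them is not given. FGF21, a hormone-like FGF, had 13, 15.9, 6.06 and 6.28 in the catagen libraries and 1.55, 1.75, 1.06 and 4.83 in the telogen libraries. It fell by 1.79 log2 (SE 0.34, adjusted p = 0.00171) and was lower in each telogen library than in any of the other 8. TNFRSF6B, a secreted decoy receptor for ligands of the TNF family, had 37.3, 20.6, 21.2 and 16.7 in the catagen libraries and 6.14, 6.71, 2.8 and 11.96 in the telogen libraries and fell by 1.73 log2 (SE 0.327, adjusted p = 0.00171). HES2, a repressor of the hairy family, had 61.6, 36.1, 33.2 and 39.5 in the catagen libraries and 10.5, 12.9, 8.34 and 21.2 in the telogen libraries and fell by 1.65 log2 (SE 0.24, adjusted p = 0.000539). IGFBP6, which binds IGF2, had 63.1, 28.4, 28.7 and 34.1 in the catagen libraries and 8.6, 9.23, 10.9 and 18.5 in the telogen libraries and fell by 1.61 log2 (SE 0.278, adjusted p = 0.00114). The rest included genes of mitochondria and protein turnover: TOMM7, of the mitochondrial import pore, fell by 1.94 log2 (adjusted p = 0.000426); CHCHD1, a mitochondrial protein, fell by 1.69 log2 (adjusted p = 0.000389); COPS9, of the COP9 signalosome, fell by 1.81 log2 (adjusted p = 0.000595). CTSZ, a lysosomal cathepsin, fell by 1.79 log2 (adjusted p = 0.00142), and TSTD1, a sulfurtransferase, fell by 1.80 log2 (adjusted p = 0.000852). TMEM160 fell by 1.86 log2 (adjusted p = 0.000557), FAM213B fell by 1.84 log2 (adjusted p = 0.000533) and FAM25A fell by 1.71 log2 (adjusted p = 0.00251).

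**Figure D2:**
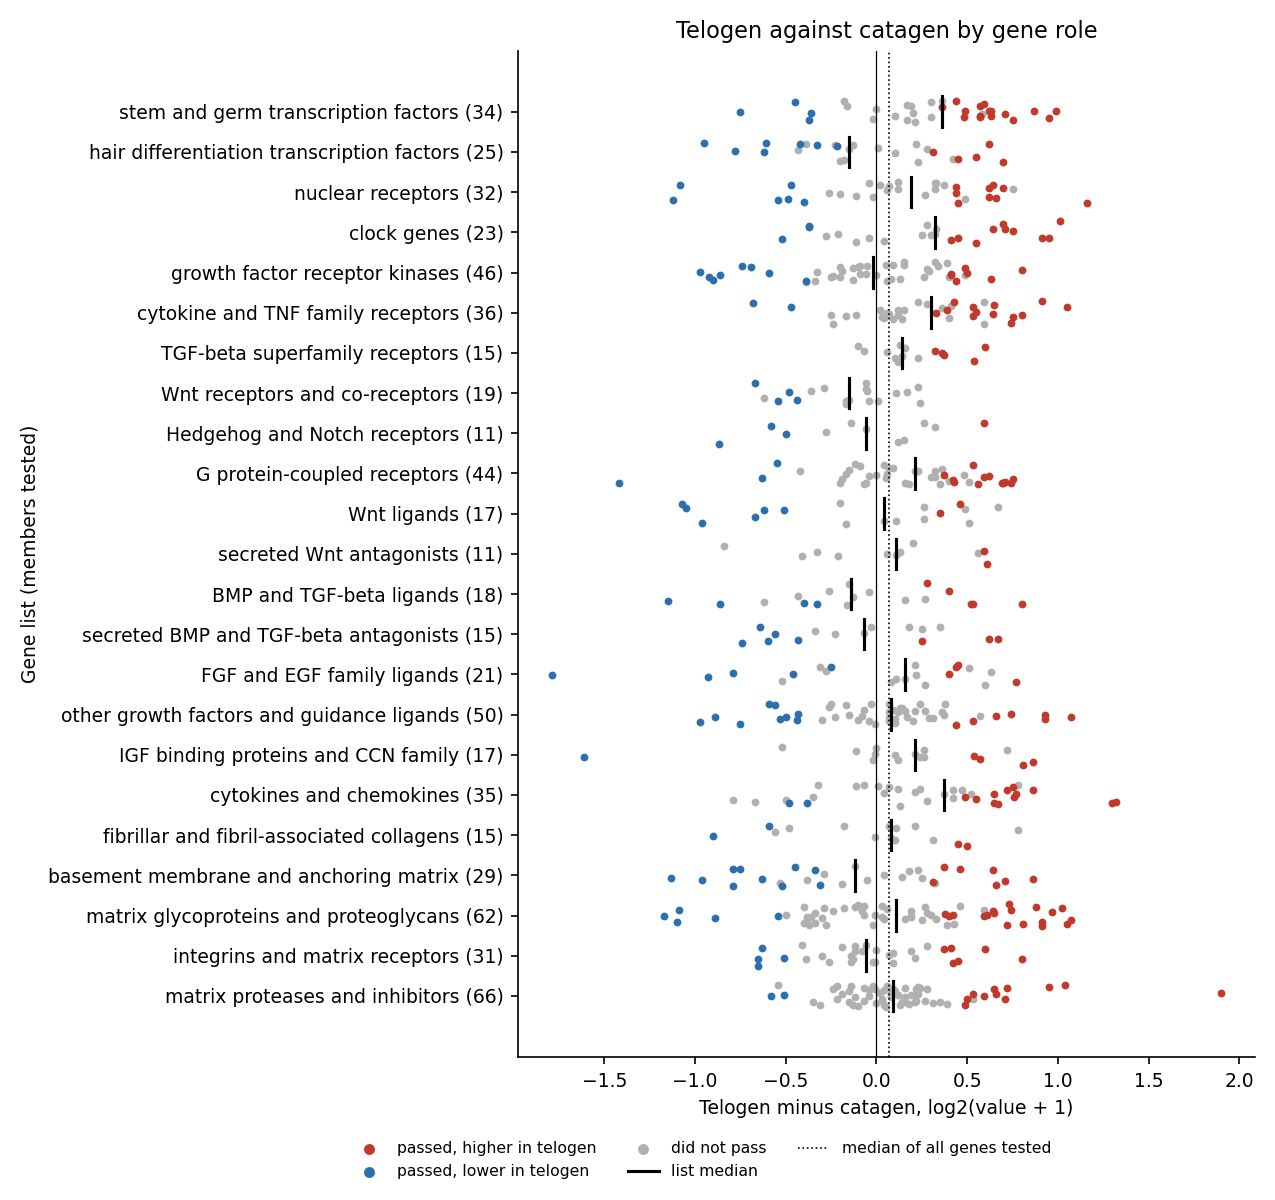
Change of each member tested in 23 lists of regulators, receptors, secreted and matrix genes, telogen minus catagen on the log2(value + 1) scale; points are genes, coloured by the test, the bar is the list's median and the dotted line the median of all genes tested (0.07). Stem and germ factors, clock genes, cytokine receptors and cytokines lie mostly to the right and Wnt receptors hold no rise, while most lists hold genes that passed in both directions.

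Regulators, receptors, secreted and matrix genes were drawn from 23 lists of 759 genes. Of these, 666 were tested: 159 rose (23.9%), 95 fell (14.3%) and 412 did not pass, with a median of 0.10 log2. The share that rose was near the 24.5% of all genes tested, and the share that fell stood beside 19% of all genes; each count below is to be read against those shares. Without the November female 60 members fell. Their median genomic span, 35 kb, was longer than that of all genes tested. The plot of changes by role shows every member.

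On a list of 34 transcription factors drawn up for hair follicle stem cells and the hair germ, 16 rose (47.1%) and 4 fell (11.8%), with a median of 0.36 log2. The list also holds factors not particular to those cells, such as ZEB1, ZEB2, KLF4 and ELF5. Its median genomic span was 54.9 kb, against 20.7 kb over all genes tested. TP63 (gene 102190550), the master regulator of basal keratinocytes, had 221, 271, 297 and 240.3 in the catagen libraries and 578, 483, 596 and 361 in the telogen libraries. It rose by 0.95 log2 (SE 0.156, adjusted p = 0.000903), and all 4 telogen libraries lay above the other 8. TCF7L2, a transcriptional effector of Wnt signalling, had 17.5, 21.2, 22.1 and 21.6 in the catagen libraries and 48.95, 45.8, 47.1 and 28.5 in the telogen libraries and rose by 0.99 log2 (SE 0.157, adjusted p = 0.00079). NFIA, a nuclear factor I protein, had 11.8, 15.2, 14.9 and 14.6 in the catagen libraries and 30.4, 27.3, 33.99 and 17.4 in the telogen libraries and rose by 0.87 log2 (SE 0.163, adjusted p = 0.00161). In both the groups did not overlap and the March male was the lowest of telogen. ZEB2, a repressor of epithelial genes, had 17.6, 25.4, 22.9 and 28.3 in the catagen libraries and 44.5, 37.9, 55.4 and 26.8 in the telogen libraries and rose by 0.75 log2 (SE 0.205, adjusted p = 0.0108); here the March male lay below the highest catagen library. LHX2, a LIM homeobox factor of follicle stem cells, had 36.3, 31.9, 31.98 and 27.6 in the catagen libraries and 53.6, 44.2, 64.5 and 38.5 in the telogen libraries and rose by 0.62 log2 (SE 0.171, adjusted p = 0.0121). ELF5, an ETS factor of epithelia, went the other way: it had 72.9, 51.5, 59.4 and 47.4 in the catagen libraries and 32.02, 40.99, 21.4 and 45.4 in the telogen libraries and fell by 0.75 log2 (SE 0.197, adjusted p = 0.00954), almost all of it in females (1.30 against 0.19 in males). The other falls were less stable. TBX1, a T-box factor of follicle stem cells, fell by 0.45 log2 (adjusted p = 0.02) and lost its call without the November female or the February male (adjusted p 0.0596 to 0.0644). KLF4, a regulator of epithelial differentiation, fell by 0.37 log2 (adjusted p = 0.0247) and lost its call without the November female, the November male, the February male or the March female (adjusted p 0.0505 to 0.071). ZBTB7B, a zinc finger repressor, fell by 0.36 log2 (adjusted p = 0.0497) and lost its call without the November female, the November male, the December female, the February male or the March male (adjusted p 0.0639 to 0.129). NFATC1, which keeps bulge stem cells quiescent, had a difference of 0.17 (SE 0.139, adjusted p = 0.346) and did not pass. Without 1 library 12 to 20 rose; 1 fell without the November female or the February male and 2 without the November male. After the span trend was subtracted 11 rose and 4 fell, and after quantile normalization 17 rose and 2 fell.

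Of 25 factors of hair and epidermal differentiation tested, 5 rose (20%) and 7 fell (28%). The rises were in DLX3, a homeobox factor of hair differentiation, in GATA3, a factor of the inner root sheath lineage, in ZNF750 and GRHL1, regulators of the epidermal barrier, and in 1 further gene. DLX3 had 57.2, 56.1, 70.8 and 44.1 in the catagen libraries and 109, 109, 76.3 and 77.98 in the telogen libraries and rose by 0.70 log2 (SE 0.153, adjusted p = 0.00368). GATA3 had 48.8, 51.5, 64.05 and 51.2 in the catagen libraries and 90.4, 74.6, 83.2 and 69.9 in the telogen libraries and rose by 0.55 log2 (SE 0.115, adjusted p = 0.00274). Telogen lay above all 8 other libraries in both. ZNF750 rose by 0.45 log2 (adjusted p = 0.00652), and GRHL1 rose by 0.31 log2 (adjusted p = 0.0152), losing its call with month means and after the span trend was subtracted. DLX1, from the same family as DLX3, had 10.1, 11.5, 9.95 and 11.4 in the catagen libraries and 5.36, 6.98, 3.22 and 9.11 in the telogen libraries and fell by 0.78 log2 (SE 0.237, adjusted p = 0.0187). OVOL2, a zinc finger repressor of epithelia, had 3.69, 3.46, 3.17 and 3.03 in the catagen libraries and 2.03, 1.51, 1.65 and 2.15 in the telogen libraries and fell by 0.62 log2 (SE 0.119, adjusted p = 0.00184). DLX1 and OVOL2 thus moved against DLX3 and GATA3, with no overlap between the stages in any of the 4. MSX1, a homeobox factor of the hair matrix, fell by 0.61 log2 (adjusted p = 0.0247) and lost its call without the November female, the November male or the December female (adjusted p 0.0501 to 0.0577). The number of falls was 3 without the November male or the December female, and 4 without the November female or the February male. Markers of the hair shaft and inner root sheath fell over the same samples, as given below; their part in these changes was not tested.

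Of 32 nuclear receptors, factors that bind steroids, retinoids and lipids, 9 rose (28.1%) and 6 fell (18.8%). PPARG (gene 100861309), the regulator of adipocytes and sebocytes, had 16, 21.7, 20.6 and 18.3 in the catagen libraries and 64.7, 38.2, 57.7 and 25.4 in the telogen libraries. It rose by 1.16 log2 (SE 0.255, adjusted p = 0.0037); females changed by 1.70 and males by 0.62. RORA, an orphan receptor that also drives the clock, had 57.04, 71.8, 73.2 and 74.5 in the catagen libraries and 137, 106, 125 and 86.5 in the telogen libraries and rose by 0.70 log2 (SE 0.155, adjusted p = 0.00392). ESR1, the estrogen receptor alpha, rose by a smaller step. It had 3.61, 3.49, 3.3 and 2.84 in the catagen libraries and 5.56, 5.04, 6.63 and 5.27 in the telogen libraries and rose by 0.62 log2 (SE 0.105, adjusted p = 0.00109), with telogen above every other library. NR4A2, an immediate early orphan receptor, rose by 0.66 log2 (adjusted p = 0.00207). Those that fell included ESRRA, an orphan receptor of mitochondrial metabolism, which had 28.1, 17.7, 16.96 and 16.9 in the catagen libraries and 9.08, 7.16, 6.41 and 11.8 in the telogen libraries and fell by 1.12 log2 (SE 0.184, adjusted p = 0.000903). NR2F6 had 38.3, 26.3, 27.3 and 24.9 in the catagen libraries and 11.8, 13.4, 11.7 and 15.8 in the telogen libraries and fell by 1.08 log2 (SE 0.151, adjusted p = 0.000483). RARG, the main retinoic acid receptor of skin, had 75.5, 59.9, 66.96 and 59.7 in the catagen libraries and 43.7, 37.5, 44.8 and 53.9 in the telogen libraries and fell by 0.54 log2 (SE 0.123, adjusted p = 0.00456). For all 3 of these falls telogen lay below every catagen and anagen library. VDR, the vitamin D receptor, whose loss in mice blocks regrowth after the first cycle, had values between 78.4 and 103 in catagen and between 78.2 and 102 in telogen and did not pass (adjusted p = 0.928).

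Clock genes drive daily rhythms, and the time of day of sampling is not given. Of 23, 10 rose (43.5%) and 3 fell (13%), with a median of 0.32 log2. The repressors BHLHE40 and BHLHE41 rose together. BHLHE40 (gene 102188542) had 24.2, 24.8, 27.7 and 21.1 in the catagen libraries and 57.6, 45.97, 64.6 and 36.5 in the telogen libraries and rose by 1.01 log2 (SE 0.152, adjusted p = 0.000595). BHLHE41 had 8.55, 10.7, 10.4 and 8.42 in the catagen libraries and 22.7, 14.96, 29.4 and 13.3 in the telogen libraries and rose by 0.95 log2 (SE 0.194, adjusted p = 0.00258). CIART, another repressor, had 18.1, 23, 17.5 and 19.6 in the catagen libraries and 43.7, 38.8, 43.97 and 26.2 in the telogen libraries and rose by 0.91 log2 (SE 0.202, adjusted p = 0.0039), and HLF, an activator at D-box sites, had 11.6, 16.04, 14.9 and 16.7 in the catagen libraries and 30.4, 23.8, 29.6 and 19.1 in the telogen libraries and rose by 0.75 log2 (SE 0.146, adjusted p = 0.00206). NFIL3, the repressor at those D-box sites, moved against HLF: it had 74.4, 55.97, 61.5 and 64.6 in the catagen libraries and 42.9, 46.2, 36.5 and 52.7 in the telogen libraries and fell by 0.52 log2 (SE 0.124, adjusted p = 0.00562). No overlap between the stages was seen in these 5 genes. NR1D1, a core repressor, rose by 0.64 log2 (adjusted p = 0.0197) with overlapping groups and lost its call without the November female, the December male or the March female (adjusted p 0.05 to 0.0593). Rises numbered 6 without the November female. Falls numbered 1 without the November female, the February female or the February male.

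Among 46 growth factor receptor kinases there were 7 rises (15.2%), 8 falls (17.4%) and a median of -0.02 log2; after the span trend was subtracted there were 4 rises and 12 falls. NTRK2, the receptor of BDNF, had 16.6, 15.3, 21.5 and 20.4 in the catagen libraries and 31.2, 32.6, 31.6 and 34.8 in the telogen libraries and rose by 0.80 log2 (SE 0.106, adjusted p = 0.000414). EGFR, through which TGFA and betacellulin act, had 96.4, 94.5, 112 and 97.1 in the catagen libraries and 142, 157, 119 and 148 in the telogen libraries and rose by 0.49 log2 (SE 0.103, adjusted p = 0.00296). The change in EGFR was larger in males (0.66) than in females (0.32). DDR2, a collagen receptor, rose by 0.63 log2 (adjusted p = 0.00319), and MERTK, a receptor for the uptake of dying cells, rose by 0.50 log2 (adjusted p = 0.00823). The Eph receptors EPHA2 and EPHB6 fell. EPHA2 had 46.8, 39.6, 38.1 and 34.5 in the catagen libraries and 18.6, 18.4, 14.3 and 30.01 in the telogen libraries and fell by 0.97 log2 (SE 0.173, adjusted p = 0.00129), and EPHB6 had 60.9, 41.7, 35.1 and 39.9 in the catagen libraries and 23.8, 16.9, 20.1 and 32.8 in the telogen libraries and fell by 0.90 log2 (SE 0.211, adjusted p = 0.00504). PTK7, a kinase-dead receptor of planar polarity, had 79.4, 52.7, 55.4 and 52.8 in the catagen libraries and 28.8, 27.6, 27.1 and 42.1 in the telogen libraries and fell by 0.92 log2 (SE 0.167, adjusted p = 0.00144). RET, the receptor of GDNF, had 42.4, 29.9, 32.1 and 28.5 in the catagen libraries and 16.5, 22.9, 9.36 and 26.8 in the telogen libraries and fell by 0.86 log2 (SE 0.249, adjusted p = 0.0147). The stages did not overlap in these 4, and the March male was the highest telogen library in each.

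Of 36 receptors of cytokines and of the TNF family 13 rose (36.1%), 2 fell (5.56%) and the others did not pass, with a median of 0.30 log2. EDA2R, a receptor for ectodysplasin A2, had 5.16, 5.22, 5.1 and 6.49 in the catagen libraries and 10.3, 13.2, 11.2 and 10.2 in the telogen libraries and rose by 0.91 log2 (SE 0.104, adjusted p = 0.000225). Its change was nearly equal in the sexes, 0.94 log2 in females and 0.88 in males. PRLR (gene 100861318), the prolactin receptor, through which day length acts on seasonal coats, had 45.9, 62.3, 59.8 and 55.99 in the catagen libraries and 115, 82.5, 123 and 76.8 in the telogen libraries and rose by 0.80 log2 (SE 0.165, adjusted p = 0.00272), with more in females (1.17) than in males (0.42). OSMR, the oncostatin M receptor, had 10.4, 17.9, 13.7 and 14.4 in the catagen libraries and 22.9, 18.3, 36.4 and 21.8 in the telogen libraries and rose by 0.75 log2 (SE 0.198, adjusted p = 0.00915). Telogen exceeded all 8 other libraries in these 3 genes. NGFR, the low-affinity neurotrophin receptor, rose by 0.74 log2 (adjusted p = 0.0313), with a change of 1.33 in females and 0.15 in males. Its call was lost without the November female, the December male, the February female or the March female (adjusted p 0.0638 to 0.0909). IL11RA, the interleukin 11 receptor, had 17.1, 17.2, 13.2 and 13.5 in the catagen libraries and 9.99, 8.27, 8.16 and 10.2 in the telogen libraries and fell by 0.68 log2 (SE 0.119, adjusted p = 0.00124), the same step in both sexes. TNFRSF12A, the receptor of TWEAK, fell by 0.47 log2 (adjusted p = 0.0388) and lost its call without the November female, the November male, the December male, the February male or the March female (adjusted p 0.0609 to 0.107). Without the November female, the November male, the December male, the February male or the March female only 1 receptor fell.

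Of 15 TGF-beta superfamily receptors 5 rose (33.3%) and none fell by limma, nor at an unadjusted p under 0.05 (0 of 15). BMPR2, the type II receptor of BMPs, had 48.4, 58.5, 64.9 and 58.5 in the catagen libraries and 88.8, 93.9, 93.98 and 63.1 in the telogen libraries and rose by 0.54 log2 (SE 0.129, adjusted p = 0.00555), with the March male just below the highest catagen library. ENG, a co-receptor abundant in endothelium, had 11.99, 14.9, 12.2 and 11.97 in the catagen libraries and 25.6, 14.4, 30.7 and 13.5 in the telogen libraries and rose by 0.60 log2 (SE 0.224, adjusted p = 0.0432); the females rose by 1.15 and the males by 0.06. ENG lost its call without the November female, the December female, the December male, the February female or the March female (adjusted p 0.0821 to 0.127). Rises numbered 2 without the November female or the March female, 3 without the November male, the December female or the February male, 2 after the span trend was subtracted, when 1 fell, and 3 after quantile normalization. Beside this, summed endothelial markers ran from 159.2 to 213 in catagen and from 111 to 243.8 in telogen, highest in the telogen females, and their part in the change of ENG was not tested.

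Wnt receptors and co-receptors held no rise among 19 and 4 falls (21.1%), with a median of -0.15 log2 against 0.07 for all genes. At an unadjusted p under 0.05 limma gave 0 rises and 6 falls, and after the span trend was subtracted 8 members fell and 0 rose. FZD1 had 60.1, 50.7, 53.4 and 49.9 in the catagen libraries and 31.3, 33.7, 25.6 and 45.1 in the telogen libraries and fell by 0.67 log2 (SE 0.143, adjusted p = 0.00331). FZD2 had 24.5, 14.8, 15.6 and 15.5 in the catagen libraries and 10.8, 12.6, 12.1 and 12.7 in the telogen libraries and fell by 0.48 log2 (SE 0.137, adjusted p = 0.0132). LRP5, the co-receptor of frizzled proteins, had 16.02, 13.1, 16.7 and 11.6 in the catagen libraries and 11.2, 6.76, 9.87 and 10.5 in the telogen libraries and fell by 0.54 log2 (SE 0.152, adjusted p = 0.0126). APCDD1, an inhibitor at the cell surface, had 204, 191, 181 and 159 in the catagen libraries and 139, 108, 143 and 151 in the telogen libraries and fell by 0.44 log2 (SE 0.123, adjusted p = 0.0117); it lost its call after quantile normalization. No telogen library reached the lowest catagen library in any of the 4. Among 11 Hedgehog and Notch receptors 1 rose (9.09%) and 3 fell (27.3%). NOTCH3 had 54.5, 36.2, 38.4 and 36.3 in the catagen libraries and 21.9, 19.5, 19.96 and 26.2 in the telogen libraries and fell by 0.87 log2 (SE 0.178, adjusted p = 0.00252). NOTCH1 had 70.5, 60.3, 71.95 and 53.6 in the catagen libraries and 44.8, 33.97, 42.04 and 50.3 in the telogen libraries and fell by 0.58 log2 (SE 0.135, adjusted p = 0.00515). SMO, the signal transducer of Hedgehog, had 21.3, 15.03, 16.6 and 15.4 in the catagen libraries and 11.8, 9.34, 11.3 and 14.9 in the telogen libraries and fell by 0.50 log2 (SE 0.145, adjusted p = 0.0148). Again the stages stayed apart in all 3. Rises numbered 2 without the February male or the March male and 0 after quantile normalization.

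Of 44 G protein-coupled receptors 12 rose (27.3%) and 3 fell (6.82%), beside 24.5% and 19% of all genes. After quantile normalization 11 rose and 5 fell. EDNRB (gene 102186699), the endothelin receptor of melanocytes and their precursors, showed the largest fall: it had 61.1, 35.2, 37.2 and 43.1 in the catagen libraries and 13.8, 25.2, 6.3 and 24.9 in the telogen libraries and fell by 1.42 log2 (SE 0.354, adjusted p = 0.00702). The change was 2.23 log2 in females and 0.61 in males, and telogen lay below all 8 other libraries. Beside it, 3 of 12 melanocyte markers rose and none fell by limma (5 and 1 at an unadjusted p under 0.05), and their sum ran from 71.17 to 84.66 in catagen and from 80.02 to 122.2 in telogen. LPAR6, a lysophosphatidic acid receptor whose loss in humans causes sparse woolly hair, had 39.5, 37.98, 43.3 and 49.3 in the catagen libraries and 26.5, 35.7, 21.4 and 32.6 in the telogen libraries and fell by 0.55 log2 (SE 0.154, adjusted p = 0.0121). LPAR3, for the same ligand, went up: it had 9.59, 13.1, 14.6 and 13.9 in the catagen libraries and 21.4, 22.2, 18.6 and 21.98 in the telogen libraries and rose by 0.69 log2 (SE 0.118, adjusted p = 0.00109). S1PR5, a sphingosine 1-phosphate receptor, had 32.8, 31.3, 29.4 and 27.7 in the catagen libraries and 17.7, 17.7, 17.1 and 24.9 in the telogen libraries and fell by 0.63 log2 (SE 0.114, adjusted p = 0.00137). P2RY2, a receptor for extracellular ATP and UTP, rose by 0.70 log2 (adjusted p = 0.000595), and ACKR4, which scavenges chemokines, rose by 0.71 log2 (adjusted p = 0.00642). MC5R, the melanocortin receptor of sebaceous glands, rose by 0.75 log2 (adjusted p = 0.041) but overlapped between stages and lost its call without the November female, the November male, the December male, the February female or the March female (adjusted p 0.0775 to 0.111). Sebocyte markers, MC5R and PPARG among them, summed to 1091 to 1353 in catagen and to 1290 to 2270 in telogen, the telogen females at 1993 and 2270; their part in the rises of PPARG and MC5R was not tested.

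**Figure D3:**
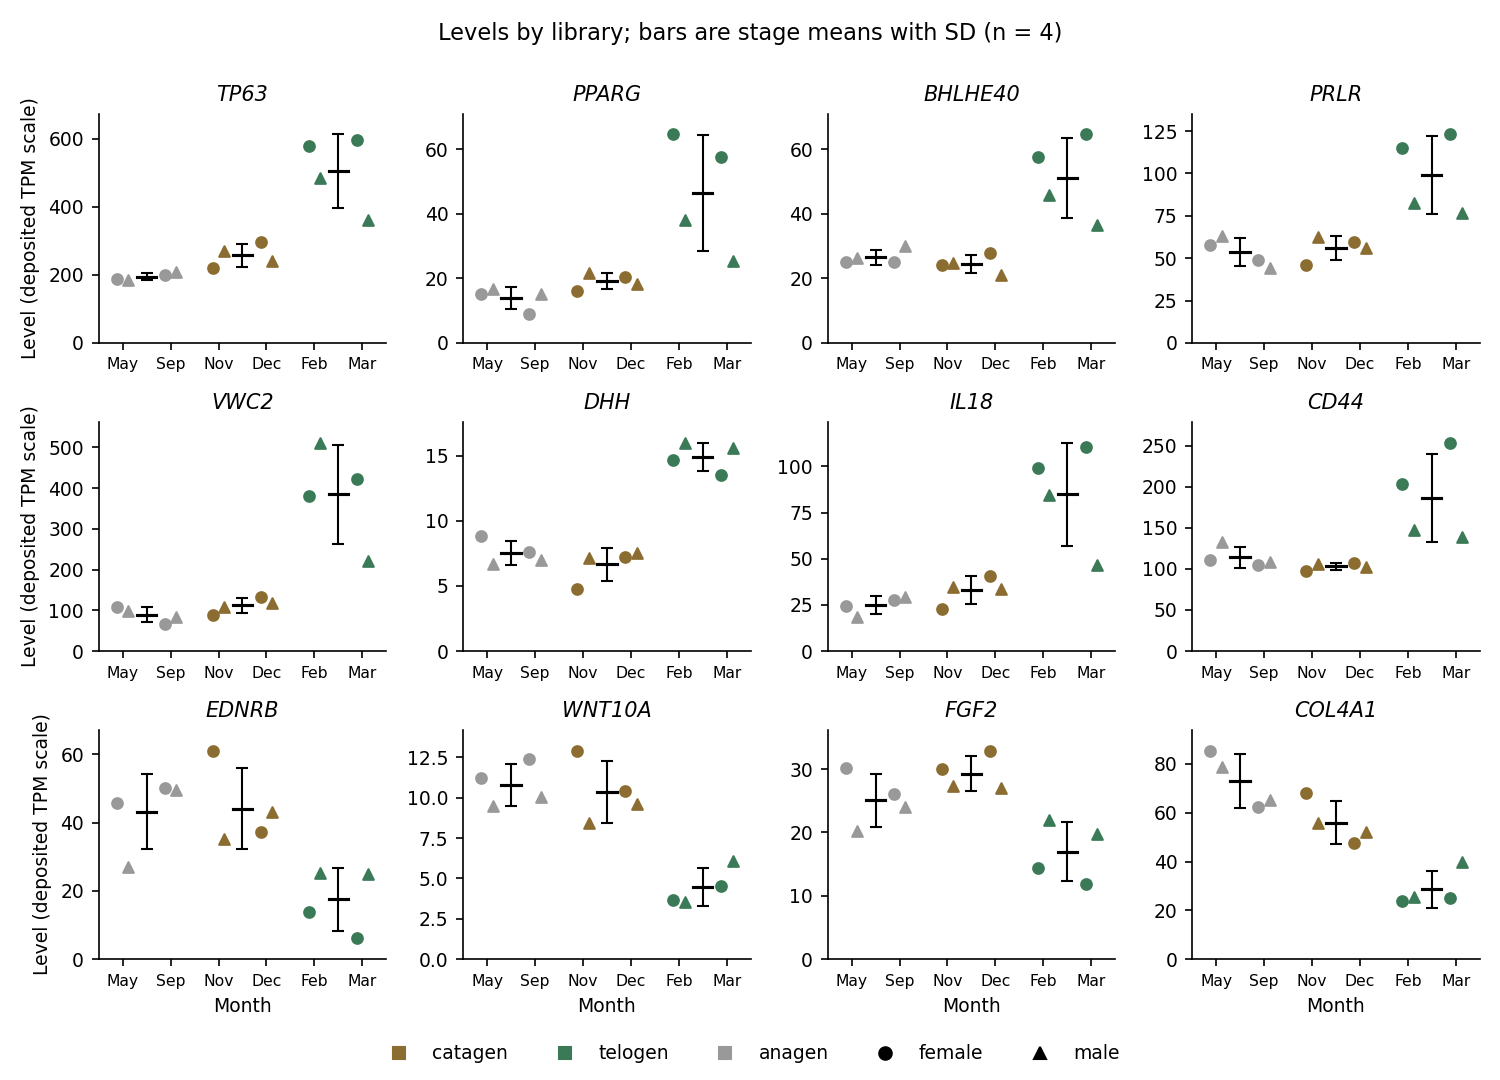
Level per library, on the deposited TPM scale, of 12 genes by month from May to March; circles are females, triangles males, bars the mean of each stage with its SD (n = 4). In the upper 8 panels (TP63 to CD44) telogen lies above catagen and in the lower 4 (EDNRB to COL4A1) below it; the March male often lies nearest catagen, as in VWC2 (222) and COL4A1 (39.8).

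Wnt ligands fell more often than they rose, 6 of 17 (35.3%) against 2 (11.8%). WNT10A (gene 102177945), a ligand of hair and tooth development, had 12.9, 8.42, 10.4 and 9.64 in the catagen libraries and 3.65, 3.56, 4.52 and 6.09 in the telogen libraries. It fell by 1.07 log2 (SE 0.157, adjusted p = 0.000559), and every telogen library lay below the other 8. WNT11, which signals mainly outside the beta-catenin branch, had 43.3, 31.2, 32.3 and 31.6 in the catagen libraries and 13.5, 17.2, 11.6 and 24.04 in the telogen libraries and fell by 1.05 log2 (SE 0.19, adjusted p = 0.00136). WNT6 had 7.4, 3.03, 3.06 and 3.63 in the catagen libraries and 1.16, 0.97, 2.18 and 2.3 in the telogen libraries and fell by 0.96 log2 (SE 0.274, adjusted p = 0.0137). WNT10B, an activator of hair growth, had 6.19, 4.35, 4.31 and 4.29 in the catagen libraries and 2.45, 2.15, 1.84 and 4.41 in the telogen libraries and fell by 0.67 log2 (SE 0.214, adjusted p = 0.0224); the March male, at 4.41, reached into the catagen range. WNT10B lost its call without the November female, the February female, the February male or the March female (adjusted p 0.0512 to 0.0724). WNT3 alone of the named ligands was higher: it had 8.43, 7.92, 6.5 and 8.12 in the catagen libraries and 11.7, 10.2, 11.5 and 10.4 in the telogen libraries and rose by 0.46 log2 (SE 0.133, adjusted p = 0.0149). Without the November female 3 ligands fell. Rises numbered 1 without any 1 of the 4 catagen libraries or the February female, and also after the span trend was subtracted or after quantile normalization.

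Among 11 secreted Wnt antagonists 2 rose (18.2%) and none fell by limma, with 3 in each direction at an unadjusted p under 0.05. SOSTDC1, which binds both Wnt co-receptors and BMPs, had 39.02, 33.9, 49.4 and 47.4 in the catagen libraries and 61.4, 59.4, 60.5 and 74.8 in the telogen libraries and rose by 0.59 log2 (SE 0.154, adjusted p = 0.00877). FRZB, a secreted frizzled-related protein, had 2.03, 1.97, 2.56 and 1.99 in the catagen libraries and 4.93, 3.08, 4.16 and 3.18 in the telogen libraries and rose by 0.61 log2 (SE 0.155, adjusted p = 0.00778). No overlap between the stages was seen in either. DKK1, whose overexpression is known to push follicles into catagen, had 1.42, 2.63, 1.64 and 2.02 in the catagen libraries and 3.13, 2.99, 5.04 and 2.33 in the telogen libraries. Its difference of 0.56 (SE 0.216, adjusted p = 0.0502) missed the threshold. Nor did the differences of SFRP1, 0.20 (SE 0.129, adjusted p = 0.216), or WIF1, -0.41 (SE 0.165, adjusted p = 0.059), pass. With 1 library left out, DKK1 passed without the November male (adjusted p = 0.0367) or the March male (0.0256), SFRP1 without the March female (0.027) and WIF1 without the December female (0.0391) or the February male (0.0256). With the December female, the December male, the February male or the March male left out, 1 antagonist fell, and 1 also fell after the span trend was subtracted and after quantile normalization.

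BMP and TGF-beta ligands moved in both directions: 5 of 18 rose (27.8%) and 4 fell (22.2%). INHBA, the subunit of activin A, had 6.45, 5.43, 7.07 and 8.19 in the catagen libraries and 9.89, 14.5, 14.9 and 11.3 in the telogen libraries and rose by 0.80 log2 (SE 0.149, adjusted p = 0.00158). TGFB2, a ligand known to activate the hair germ at the end of telogen and to promote catagen, had 16.9, 17.4, 21.6 and 19.1 in the catagen libraries and 26.1, 33.4, 24.7 and 26.1 in the telogen libraries and rose by 0.53 log2 (SE 0.114, adjusted p = 0.0032). In both genes every telogen library lay above the other 8. BMP8B had 20.3, 11.99, 15.2 and 13.6 in the catagen libraries and 5.26, 6.4, 3.49 and 11.98 in the telogen libraries and fell by 1.15 log2 (SE 0.251, adjusted p = 0.00355), while BMP8A fell by 0.86 log2 (adjusted p = 0.00801). These are near-identical copies in mammals, and how reads were divided between them is not given. BMP2 and BMP4, which hold the bulge in the refractory part of telogen, did not pass. BMP2 had 27.5, 22.4, 28.6 and 19.96 in the catagen libraries and 19.02, 22.02, 12.1 and 19.5 in the telogen libraries, a difference of -0.43 (SE 0.17, adjusted p = 0.0535). BMP4 had 35.3, 45.96, 38.1 and 31.7 in the catagen libraries and 31.3, 32.3, 28.9 and 32.4 in the telogen libraries, a difference of -0.26 (SE 0.105, adjusted p = 0.0638). Both differences were negative, and BMP2 passed without the December male (adjusted p = 0.0356) or the February male (0.0328), as BMP4 did without the December male (0.0238). BMP6, another quiescence signal, had a difference of -0.04 (SE 0.147, adjusted p = 0.856). Rises numbered 3 without the November, December or February female, the December male or the March male; falls numbered 2 without the November or December female. After quantile normalization 2 rose and 4 fell.

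The list of secreted antagonists of BMPs and TGF-beta held 5 falls among 15 (33.3%) and 3 rises (20%). Proteins that bind latent TGF-beta, such as LTBP3, were counted in this list and are not plain antagonists. FSTL3, which binds activin, had 23.5, 18.5, 16.5 and 17.01 in the catagen libraries and 9.91, 11.4, 10.1 and 11.96 in the telogen libraries and fell by 0.74 log2 (SE 0.194, adjusted p = 0.00922). LTBP3, which holds TGF-beta in its latent form, had 32.2, 22.4, 23.4 and 22.3 in the catagen libraries and 14.8, 14.9, 14.6 and 20.6 in the telogen libraries and fell by 0.60 log2 (SE 0.145, adjusted p = 0.00621). GREM1, a BMP antagonist, had 14.2, 13.1, 14.2 and 12.1 in the catagen libraries and 30.4, 16.9, 31.6 and 13.9 in the telogen libraries and rose by 0.67 log2 (SE 0.236, adjusted p = 0.0357); its stages overlapped and the call was lost without the November female, the November male, the December female, the December male, the February female or the March female (adjusted p 0.0546 to 0.109). VWC2, described above, is a BMP antagonist outside this list and had means of 112 ± 18.8 (SD, n = 4) in catagen and 384.4 ± 121 in telogen. Rises numbered 1 without the November male or the December, February or March female. Falls numbered 2 without the November female and 3 without the November male or the December or February female.

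The list of FGF and EGF family ligands gave 4 rises (19%) and 5 falls (23.8%) among 21. FGF2 had 29.98, 27.3, 32.9 and 26.99 in the catagen libraries and 14.4, 21.9, 11.9 and 19.8 in the telogen libraries and fell by 0.79 log2 (SE 0.172, adjusted p = 0.00356). FGF22, of the FGF7 subfamily, had 15.4, 8.64, 10.5 and 11.7 in the catagen libraries and 5.32, 6.52, 3.15 and 8.03 in the telogen libraries and fell by 0.93 log2 (SE 0.248, adjusted p = 0.0102), and FGF21 fell as described above. FGF12, named after its values were seen, is counted in this list although it is an intracellular member of the FGF family and not a ligand. It rose by 0.40 log2 (adjusted p = 0.0239). The call was lost without the November female, the November male or the February male (adjusted p 0.0574 to 0.071), after quantile normalization, with month means and after the span trend was subtracted. FGF5, the signal that ends anagen and whose loss lengthens goat fleece, had 4.99, 3.47, 2.5 and 3.86 in the catagen libraries and 1.58, 4.11, 0.49 and 4.53 in the telogen libraries. The telogen females were low at 1.58 and 0.49 and the males were not, and the difference of -0.52 (SE 0.337, adjusted p = 0.23) did not pass. FGF18, a quiescence signal of the bulge, had 3.12, 1.21, 2.52 and 1.95 in the catagen libraries and 2.28, 2.53, 1.4 and 3.22 in the telogen libraries and did not pass either, at 0.08 (SE 0.211, adjusted p = 0.786). Of the EGF family, NRG4, which acts on ERBB4, had 6.8, 6.34, 6.92 and 9.65 in the catagen libraries and 14.5, 11.7, 17.3 and 10.4 in the telogen libraries and rose by 0.77 log2 (SE 0.179, adjusted p = 0.00499). BTC had 32.3, 37.4, 35.8 and 38.6 in the catagen libraries and 46.9, 53.3, 43.2 and 53.4 in the telogen libraries and rose by 0.44 log2 (SE 0.102, adjusted p = 0.00508). TGFA had 33.4, 30.1, 26.7 and 26.3 in the catagen libraries and 20.5, 25.03, 15.8 and 22.9 in the telogen libraries and fell by 0.46 log2 (SE 0.136, adjusted p = 0.0156), losing its call without the November female (adjusted p = 0.051). BTC and TGFA, both ligands of EGFR, thus moved in opposite directions. Rises numbered 2 without the November female or after the span trend was subtracted, and 7 without the March male; falls numbered 3 without the November female.

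Among 50 other growth factors and guidance ligands 7 rose (14%) and 9 fell (18%). DHH (gene 102168427), the Hedgehog ligand made by Schwann cells, had 4.77, 7.14, 7.25 and 7.54 in the catagen libraries and 14.7, 15.96, 13.5 and 15.6 in the telogen libraries and rose by 1.07 log2 (SE 0.131, adjusted p = 0.000302). No telogen library was below 13.5 and no catagen library above 7.54. Schwann cell markers moved with it: 6 of 11 rose and 1 fell, and their sum was 116 to 141.7 in catagen and 145.7 to 247.3 in telogen; 2 rose without the November female and 3 without the February female. Their part in the rise of DHH was not tested. SHH, the ligand of the hair matrix and germ, had 4.63, 4.7, 5.55 and 4.07 in the catagen libraries and 5.48, 6.37, 6.2 and 4.52 in the telogen libraries and did not pass, at 0.21 (SE 0.137, adjusted p = 0.235). MDK, a heparin-binding growth factor, had 11.7, 5.03, 5.69 and 11.02 in the catagen libraries and 14.3, 14.4, 19.6 and 15.5 in the telogen libraries and rose by 0.93 log2 (SE 0.245, adjusted p = 0.00955). VEGFA, the vascular growth factor, had 9.48, 10.9, 10.4 and 9.87 in the catagen libraries and 19.3, 17.8, 22.6 and 12.3 in the telogen libraries and rose by 0.74 log2 (SE 0.142, adjusted p = 0.00182). SEMA3E rose by 0.93 log2 (adjusted p = 0.0162), except that the March male (8.97) was as low as catagen; the call was lost without the November female or the February female (adjusted p 0.0512 to 0.0537). JAG1 and JAG2, ligands of Notch, fell. JAG1 had 103, 91.9, 98.9 and 97.04 in the catagen libraries and 64.9, 56.8, 55.2 and 85.8 in the telogen libraries and fell by 0.59 log2 (SE 0.125, adjusted p = 0.00309), and JAG2 had 53.9, 41.1, 40.5 and 36.4 in the catagen libraries and 24.5, 15.1, 24.4 and 27.98 in the telogen libraries and fell by 0.89 log2 (SE 0.181, adjusted p = 0.00248). NTN1, the guidance protein netrin, had 27.1, 21.4, 20.5 and 19.1 in the catagen libraries and 11.4, 11.2, 9.14 and 11.2 in the telogen libraries and fell by 0.97 log2 (SE 0.141, adjusted p = 0.000538). EDN2, a ligand of EDNRB, had 9.51, 7.45, 8.66 and 7.29 in the catagen libraries and 4.63, 5.39, 2.43 and 6.13 in the telogen libraries and fell by 0.75 log2 (SE 0.219, adjusted p = 0.015). In these 4 falls telogen lay below all 8 other libraries. Rises numbered 4 without the February female and 11 without the March male.

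Of 17 IGF binding proteins and CCN proteins 4 rose (23.5%) and 1 fell (5.88%), the fall being IGFBP6. IGFBP3 had 63.5, 37.5, 54.2 and 54.7 in the catagen libraries and 88.7, 94.5, 111 and 73.9 in the telogen libraries and rose by 0.81 log2 (SE 0.166, adjusted p = 0.00259). IGFBP5 had 108, 76.4, 92.2 and 91.9 in the catagen libraries and 125, 139, 129 and 140.3 in the telogen libraries and rose by 0.54 log2 (SE 0.109, adjusted p = 0.00253). WISP2, of the CCN family, had 5.82, 6.01, 6.79 and 6.85 in the catagen libraries and 12.02, 13.6, 9.72 and 14.5 in the telogen libraries and rose by 0.86 log2 (SE 0.121, adjusted p = 0.000483). IGFBP3 and IGFBP5 therefore moved opposite to IGFBP6. None of the 4 overlapped between stages, which for IGFBP6 was a condition of its choice among the largest falls. Without the December female 2 members fell.

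Cytokines and chemokines rose in 12 of 35 cases (34.3%) and fell in 2 (5.71%), with a median of 0.37 log2. IL37, an anti-inflammatory member of the IL1 family, had 28.1, 34.1, 35.6 and 33.4 in the catagen libraries and 82.8, 91.7, 72.2 and 86.7 in the telogen libraries and rose by 1.32 log2 (SE 0.138, adjusted p = 0.000153). The step was even, 1.26 log2 in females and 1.37 in males. IL18 (gene 100861190), an inflammatory member of that family, had 22.9, 34.5, 40.9 and 33.6 in the catagen libraries and 98.99, 84.4, 110.4 and 46.4 in the telogen libraries and rose by 1.30 log2 (SE 0.249, adjusted p = 0.00183). IL7, which maintains lymphocytes in skin, rose by 0.76 log2 (adjusted p = 0.00415). Telogen exceeded all 8 other libraries for IL37, IL18 and IL7. CXCL16 had 18.1, 30.4, 22.1 and 18.8 in the catagen libraries and 49.6, 30.7, 63.3 and 27.6 in the telogen libraries and rose by 0.86 log2 (SE 0.232, adjusted p = 0.0105), with the telogen males at 30.7 and 27.6 beside a catagen maximum of 30.4. CXCL14, the most abundant chemokine named here, had 774, 687, 612 and 695 in the catagen libraries and 524, 548, 546 and 498 in the telogen libraries and fell by 0.38 log2 (SE 0.13, adjusted p = 0.0308); it lost its call without the November female, the November male, the December male, the February female or the March male (adjusted p 0.0546 to 0.0855). No cytokine or chemokine fell without the November female, the November male or the February female, and 1 fell without the December female, the December male or the February male, after the span trend was subtracted or after quantile normalization. Some markers of T cells and myeloid cells, though not all, moved with the rises. On the T cell list 3 of 8 markers tested, CD3D, CD3E and GZMA, rose and none fell (2 and 1 after quantile normalization), and CD8A was below 1 in all 8 libraries. The summed level was 30.48 to 43.4 in catagen and 55.44 to 83.38 in telogen, but GZMA alone had means of 21.35 and 45.45. CD2, CD3G, CD4, CD5 and LCK did not pass, and LCK was lower in every telogen library than in any catagen library. In myeloid cells 5 of 10 rose and none fell, with a sum of 45.66 to 57.73 in catagen and 62.17 to 112.6 in telogen. Their part in the rises of cytokines and cytokine receptors was not tested, and in whole follicles more cells of a type and more RNA per cell cannot be told apart.

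In the matrix, collagens that form or decorate fibrils gave 2 rises and 2 falls (13.3% each) among 15, or 0 rises and 4 falls after the span trend was subtracted, and all 9 fibroblast markers missed the threshold. COL16A1 had 62.5, 51.5, 40.7 and 45.5 in the catagen libraries and 21.9, 21.2, 28.7 and 34.1 in the telogen libraries and fell by 0.90 log2 (SE 0.199, adjusted p = 0.00371). COL12A1 rose by 0.45 log2 (adjusted p = 0.00886), a call lost after the span trend was subtracted, and COL5A3 fell by 0.59 log2 (adjusted p = 0.0154), a call lost with month means and without the November female (adjusted p = 0.0523). Rises numbered 1 without the November female, the November male or any 1 telogen library, and after quantile normalization. Falls numbered 1 without the November female and 4 without the November male or the March male.

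Of 29 genes of the basement membrane and its anchors 10 fell (34.5%) and 7 rose (24.1%). COL4A1 and COL4A2, the ubiquitous chains of type IV collagen, fell together. COL4A1 (gene 102171079) had 68.1, 55.99, 47.4 and 52.2 in the catagen libraries and 23.9, 25.6, 24.9 and 39.8 in the telogen libraries and fell by 0.96 log2 (SE 0.166, adjusted p = 0.00113), and COL4A2 had 58.6, 43.8, 32.9 and 37.1 in the catagen libraries and 22.2, 24.3, 22.3 and 26.9 in the telogen libraries and fell by 0.79 log2 (SE 0.159, adjusted p = 0.00224). COL18A1, the precursor of endostatin, had 181, 112, 114 and 115 in the catagen libraries and 51.2, 49.5, 48.1 and 90.8 in the telogen libraries and fell by 1.13 log2 (SE 0.228, adjusted p = 0.00236). LAMC3, a laminin chain, had 21.6, 13.4, 11.2 and 10.6 in the catagen libraries and 6.34, 7.75, 6.91 and 8.96 in the telogen libraries and fell by 0.79 log2 (SE 0.189, adjusted p = 0.0055). No telogen library reached the other 8 in these 4 genes. FRAS1, FREM1 and FREM2, of the Fraser complex that anchors epidermis to dermis, rose. FRAS1 had 6.69, 8.13, 7.77 and 7 in the catagen libraries and 12.3, 11.5, 14.3 and 12.9 in the telogen libraries and rose by 0.71 log2 (SE 0.106, adjusted p = 0.00059). FREM2 had 3.99, 4.52, 5.49 and 5.33 in the catagen libraries and 9.84, 7.19, 14.02 and 8.32 in the telogen libraries and rose by 0.86 log2 (SE 0.174, adjusted p = 0.00233), and FREM1 had 3.2, 3.48, 4.05 and 4.54 in the catagen libraries and 5.02, 6.8, 8.09 and 6.26 in the telogen libraries and rose by 0.64 log2 (SE 0.156, adjusted p = 0.00635). All 3 kept the stages apart. NPNT, the nephronectin that bulge cells lay down for the arrector pili muscle, rose by 0.66 log2 (adjusted p = 0.0168) but lost its call without the November female or the February female (adjusted p 0.0501 to 0.0512). Rises numbered 4 without the February female, and 4 rose and 13 fell after the span trend was subtracted.

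Of 62 matrix glycoproteins and proteoglycans 18 rose (29%) and 5 fell (8.06%). ECM1 had 20.9, 29.6, 18.8 and 22.5 in the catagen libraries and 59.3, 38.01, 72.2 and 34.6 in the telogen libraries and rose by 1.07 log2 (SE 0.207, adjusted p = 0.00188), by 1.67 log2 in females and 0.47 in males. CTHRC1, a secreted protein with collagen triple helix repeats, had 11.8, 12.2, 14.6 and 15 in the catagen libraries and 29.1, 33.1, 20.96 and 33.5 in the telogen libraries and rose by 1.05 log2 (SE 0.145, adjusted p = 0.000459). OGN, a small leucine-rich proteoglycan, had 24.3, 31.7, 39.1 and 46.2 in the catagen libraries and 75.3, 88.1, 61.2 and 61.98 in the telogen libraries and rose by 1.02 log2 (SE 0.178, adjusted p = 0.00118). Each telogen library exceeded the other 8 in these 3. CHAD, of the same leucine-rich family as OGN, rose by 0.97 log2 (adjusted p = 0.016), with the March female highest at 13.3. Among the falls, FBLN2 had 35.6, 20.6, 19.9 and 22.9 in the catagen libraries and 8.84, 9.25, 8.72 and 14.6 in the telogen libraries and fell by 1.17 log2 (SE 0.206, adjusted p = 0.00121). EMILIN1 had 9.09, 4.79, 4.54 and 6.3 in the catagen libraries and 1.59, 1.75, 2.55 and 3.53 in the telogen libraries and fell by 1.09 log2 (SE 0.226, adjusted p = 0.00271). SPON2 had 13.6, 9.37, 8.81 and 9.61 in the catagen libraries and 3.69, 2.63, 5.45 and 5.83 in the telogen libraries and fell by 1.10 log2 (SE 0.188, adjusted p = 0.0011). For these 3 telogen lay below all 8 other libraries. COL8A2 fell by 0.89 log2 (adjusted p = 0.0345) with overlapping groups and lost its call without the November female, the December male, the February female, the February male or the March female (adjusted p 0.0513 to 0.101). Falls numbered 3 without the November female, the February female or the February male, and they reached 9 when the March male was left out; after the span trend was subtracted 12 rose and 11 fell.

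Integrins and other matrix receptors gave 6 rises (19.4%) and 4 falls (12.9%) among 31, but 3 rises and 6 falls after the span trend was subtracted. CD44 (gene 102182426), the hyaluronan receptor, had 97.4, 105, 107 and 102 in the catagen libraries and 204, 148, 254 and 139 in the telogen libraries and rose by 0.80 log2 (SE 0.164, adjusted p = 0.00253). ITGB8, an integrin that releases active TGF-beta, had 17.7, 21.9, 21.7 and 24.9 in the catagen libraries and 36.5, 32.3, 35.9 and 27.6 in the telogen libraries and rose by 0.60 log2 (SE 0.115, adjusted p = 0.00186). ITGB1, the common beta chain of basal keratinocytes, had 204, 192, 182 and 203 in the catagen libraries and 113, 137, 112 and 144 in the telogen libraries and fell by 0.63 log2 (SE 0.114, adjusted p = 0.00137). GPC1, a heparan sulfate proteoglycan, had 38.9, 25.5, 32.7 and 25.8 in the catagen libraries and 18.5, 15.8, 18.9 and 23.2 in the telogen libraries and fell by 0.65 log2 (SE 0.142, adjusted p = 0.00358). The stages stayed apart in these 4, 2 in each direction. SDC2, a syndecan, fell by 0.65 log2 (adjusted p = 0.0363) and lost its call without the November female, the December male, the February female or the March female (adjusted p 0.079 to 0.0992). CD47 rose by 0.42 log2 (adjusted p = 0.027) and lost its call without the November female, the February female or the March female (adjusted p 0.0704 to 0.0809). Both overlapped between stages. Rises numbered 3 without the November female, and falls 2 without the November or February female. CDH1, the adhesion protein E-cadherin, had 198, 206, 225 and 189 in the catagen libraries and 253, 229, 240.0 and 249 in the telogen libraries and rose by 0.25 log2 (SE 0.0893, adjusted p = 0.0382), a call lost without the November female, the November male, the December male, the February female, the March female or the March male (adjusted p 0.0561 to 0.102).

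Matrix proteases and their inhibitors rose in 11 of 66 cases (16.7%) and fell in 2 (3.03%), beside 24.5% and 19% of all genes. After MMP7 the largest rises were in ADAMTS9, which cleaves versican, and MMP12, the macrophage elastase. ADAMTS9 had 8.39, 9.34, 10.04 and 13.2 in the catagen libraries and 24.5, 17.4, 35.9 and 14.6 in the telogen libraries and rose by 1.04 log2 (SE 0.283, adjusted p = 0.0111). MMP12 had 1.11, 1.91, 1.67 and 1.37 in the catagen libraries and 3.63, 4.67, 3.68 and 3.41 in the telogen libraries and rose by 0.95 log2 (SE 0.136, adjusted p = 0.000506). MMP1, the interstitial collagenase, had 21.5, 20.3, 23.5 and 20.6 in the catagen libraries and 33, 43.98, 25.6 and 43.3 in the telogen libraries and rose by 0.71 log2 (SE 0.149, adjusted p = 0.00298), more in males (1.06) than in females (0.36). No overlap between the stages was seen in the 3. ADAMTS10, which acts on fibrillin microfibrils, had 8.77, 6.62, 6.41 and 6.52 in the catagen libraries and 4.37, 3.5, 4.5 and 5.32 in the telogen libraries and fell by 0.58 log2 (SE 0.143, adjusted p = 0.00698). MMP11 fell by 0.51 log2 (adjusted p = 0.0162) and lost its call without the November female (adjusted p = 0.0501). Falls numbered 1 without the November female and 6 without the March male, and quantile normalization gave 6 rises and 4 falls.

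MKI67, the marker of dividing cells, had 11.4, 10.7, 15.4 and 11.4 in the catagen libraries and 16.6, 17.1, 18.9 and 14.1 in the telogen libraries. It rose by 0.43 log2 (SE 0.126, adjusted p = 0.0161), and only the March male overlapped the catagen range, whose top was the December female at 15.4.

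Markers of 19 cell types and follicle layers were summed per library. Such a sum follows its most abundant members and does not measure how many cells of a type a sample held. Keratins of the hair shaft, of which 7 of 15 were measured, fell in 5 cases and rose in none (6 and 0 at an unadjusted p under 0.05). KRT32, for example, had 209, 145, 144 and 137 in the catagen libraries and 64.2, 84.6, 34.8 and 103 in the telogen libraries and fell by 1.22 log2 (SE 0.259, adjusted p = 0.00306). The sum was 967.7 to 1488 in catagen and 326.6, 626.6 and 760.7 in telogen, with 989.6 in the March male. Inner root sheath markers fell in 5 of 7 cases, from sums of 12730 to 19290 to between 3645 in the March female and 12590 in the March male. KRT74, of the inner root sheath, fell by 1.30 log2 (adjusted p = 0.00967) and was the only 1 of these 5 to keep its call in all 19 alternatives: 1 fell without the November female, 2 without the November male, the February female or the March female, 3 without the December female, and 1 after quantile normalization. Markers of the outer root sheath and basal layer summed to 10570 to 15770 in catagen and to 6957 to 9757 in telogen, with 2 of 6 falls, and 1 without any library but the December female and the March male, and after quantile normalization. Epidermal markers rose in 2 of 12, a count of 1 without the November female, the December male or the February female and 0 without the March female; their sums overlapped (5012 to 6844 against 5309 to 8632).

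Of the immune and nerve sheath markers, LAPTM5, a lysosomal protein of blood cells, had 9.78, 11.6, 10.6 and 8.9 in the catagen libraries and 32.6, 24.1, 34.8 and 13.3 in the telogen libraries and rose by 1.20 log2 (SE 0.239, adjusted p = 0.00224). GZMA, a granule protease of cytotoxic lymphocytes, had 14.99, 18.9, 27 and 24.5 in the catagen libraries and 42.7, 57.9, 35.5 and 45.8 in the telogen libraries and rose by 1.07 log2 (SE 0.173, adjusted p = 0.000851). PMP22, a myelin protein, had 39.4, 41.7, 36.5 and 43.3 in the catagen libraries and 92.9, 90.3, 83.3 and 52.98 in the telogen libraries and rose by 0.94 log2 (SE 0.189, adjusted p = 0.00228), whereas PRX, of the same myelin list, fell by 0.81 log2 (adjusted p = 0.00316). Adipocyte markers rose in 2 of 6 cases, PPARG and PLIN1, with sums of 56.23 to 63.58 in catagen and 72.44 to 132.1 in telogen. PPARG, also on the sebocyte list, had means of 19.16 in catagen and 46.48 in telogen, while ADIPOQ, PLIN4, CIDEC and LPL did not pass. Sebocyte markers rose in 3 of 14, a count of 1 without the November or March female and 5 without the March male. Melanocyte markers rose in 3 of 12, a count of 0 without the February female, 1 without the March female or the December male, and 5 without the March male; after the span trend was subtracted, and after quantile normalization, 1 rose and 1 fell. Dermal papilla markers rose in 3 of 12 with sums that overlapped, 168.9 to 190.8 in catagen and 186.1 to 211.1 in telogen; 1 fell without the December female, the February male or the March female, 1 rose and 1 fell after the span trend was subtracted, and 1 rose after quantile normalization. Of 9 endothelial markers 2 fell, and 2 rose without the February male. Of skeletal muscle and sweat gland markers 1 fell in each list, of 9 and 7. The skeletal muscle fall was TNNT1, the most abundant member of its list, with means of 17.6 in catagen and 6.607 in telogen. Counts for lymphatic endothelium (2 rises of 4) and for smooth muscle and pericytes (1 fall of 8) went to 0 with several libraries left out, among them the February male and the March female. For fibroblasts, mast cells and red blood cells no marker passed by limma, nor at an unadjusted p under 0.05; 1 fibroblast marker rose without the December male or the March female, and 1 mast cell marker without the December female. KRT32, KRT74, LAPTM5, GZMA, PMP22 and PRX were chosen after their values were seen.

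**Figure D4:**
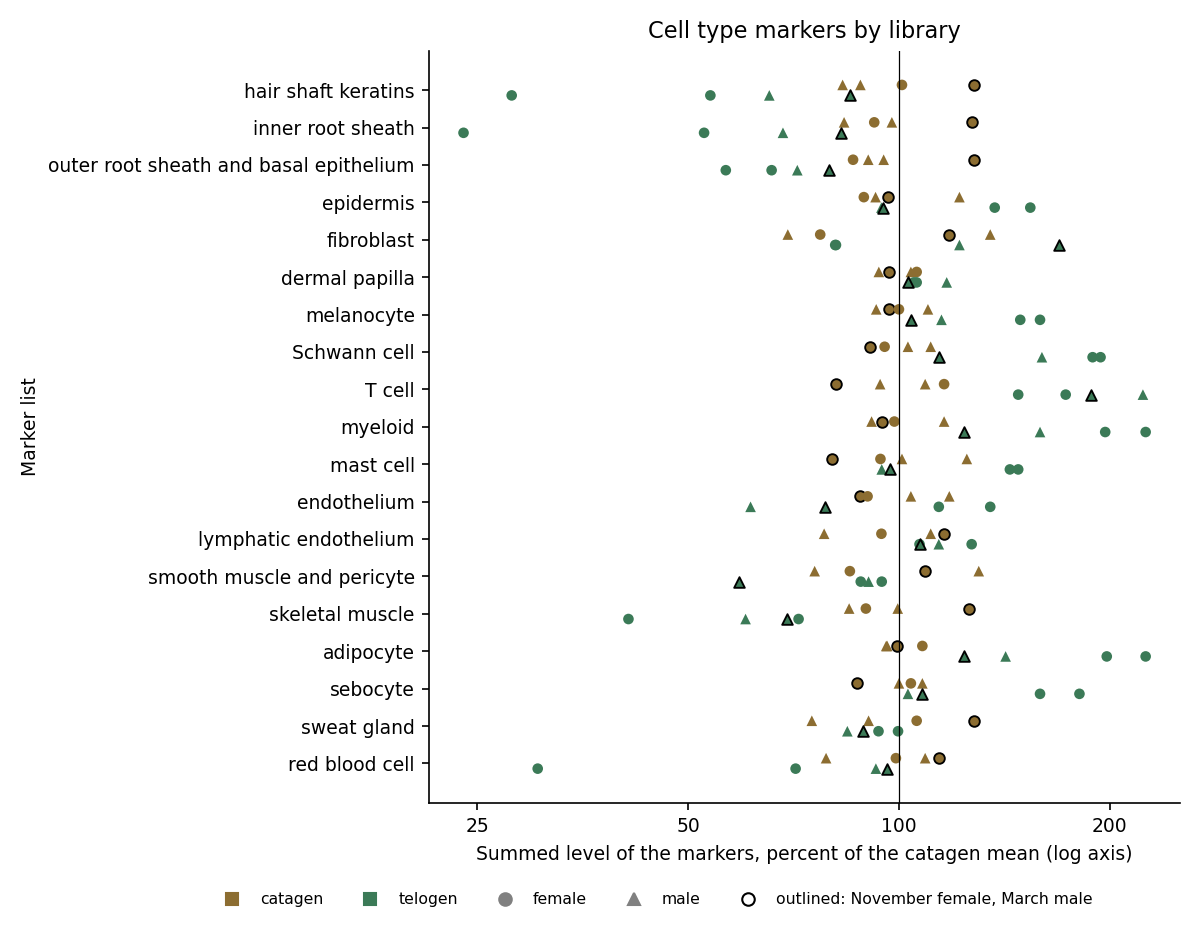
Summed level of each marker list in the 8 libraries, as percent of its catagen mean, on a log axis; brown is catagen, green telogen, circles females, triangles males, and the March male and November female are outlined. Hair shaft and inner root sheath sums are lowest in the March female (326.6 and 3645), while Schwann cell, T cell, myeloid and adipocyte sums are higher in each telogen library than in any catagen library. A sum follows its most abundant members, such as GZMA on the T cell list.

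The months within a stage were compared by the same model. March minus February passed for 1 gene, LOC106503204, with 172.99 and 164.31 in February and 56.7 and 53.14 in March, a difference of -1.60 log2 (SE 0.154, adjusted p = 0.0187 by limma); 636 genes (3.95% of those tested) had an unadjusted p under 0.05. December minus November passed for none by limma, with 588 (3.65%) at an unadjusted p under 0.05. The gene that passed between February and March, 0.00621% of those tested, was named after its values were seen.

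Changes were compared between the sexes. Over the genes that rose the median change was 0.59 log2 in females and 0.49 in males, and over those that fell -0.76 and -0.46; the female change was the larger in 58.5% of the rises and 87.7% of the falls. The sign was the same in both sexes for 3946 of 3948 rises and 3061 of 3063 falls. Tested directly, the male minus female difference of the change passed for 3 genes of 16095 (0.0186%), although 2119 had an unadjusted p under 0.05 (13.2%). None of the genes named by size or role passed, the smallest adjusted p among them being 0.193 for MMP7. Both the November female and the March male enter this difference, each as 1 of 2 libraries of its stage and sex, so sex and those libraries cannot be told apart.

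**Figure D5:**
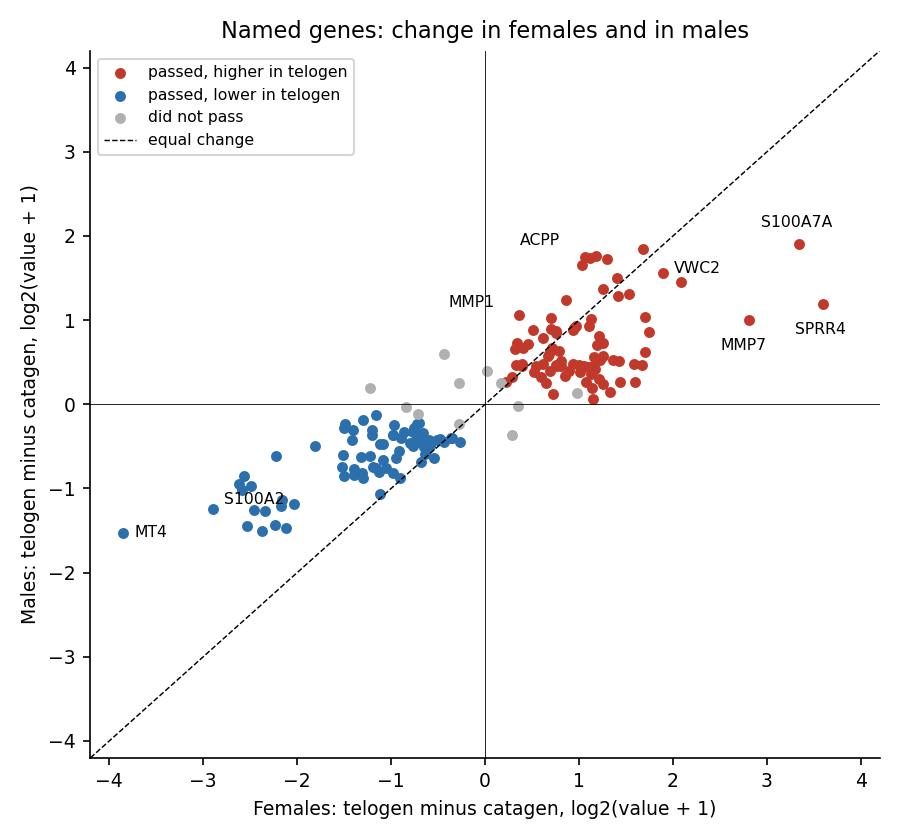
Change from catagen to telogen in males (vertical) against that in females (horizontal), log2(value + 1), for the genes named here by size, by role list or whatever their result; each point is a gene, each change a difference of means of 2 libraries, and the dashed line marks equal changes. Most falls lie above the line, with a smaller fall in males (MT4 3.85 in females and 1.53 in males), and SPRR4, MMP7 and S100A7A rose more in females.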

How the data were processed

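RNA came from RNAiso Plus extraction, per the labels' protocols, and was read on an Illumina instrument, per the series' design text. Reads were quantified with kallisto 0.46.1 and handled in sleuth 0.30.0, per the submitters' processing notes; the genome build is not given in the sources used here. Each library's file gives 1 signal value per gene, as deposited, under a heading of TPM. Library sums run from 904623 to 1127797, so the authors rescaled the values by a step not given in the sources used here, and read depth is unknown. The design had allowed for counts or TPM; this scale was treated as normalized values.

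The scale for testing was log2(value + 1). The filter kept 16095 of 20326 genes, those reaching 1 in 2 or more of the 12 libraries. Symbols and genomic spans came from the RefSeq table of assembly ARS1.2 by gene number, which matched 20294 genes; no coordinates are given since the build of the files is not named. The limma models (limma 3.58.1, R 4.3.3, with a variance trend on mean level) had 1 group per stage, per month, or per stage and sex, with Benjamini-Hochberg adjustment over all genes tested. The fit was tested on simulated data. No 2 libraries had equal values in more than 1.55% of genes tested.

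Genes and lists were chosen with earlier results of these data known. Named were the 15 largest rises and 15 largest falls that passed without overlap between stages, with a mean of at least 5 and no LOC, ribosomal or mitochondrial symbol; from each role list up to 4 rises and 4 falls that passed with a mean of at least 2; and 19 genes whatever their result. Of the 186 genes this gave, those with a described role are treated here; 1 result is not reported here. Alternatives were quantile normalization, rescaling without ribosomal protein and mitochondrial genes, other filters (none, or 5 in 4 libraries) and added constants (0.1 and 5), only the 8 libraries, the replicate number as a block, month means, each library left out, and 2 chosen after seeing the data: the span trend subtracted from each library, by a spline with 4 degrees of freedom, and the November female and March male left out together.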

Additional observations from a re-analysis of the deposited data

Results flagged for a closer look

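A library stood apart from the other 3 of its stage in 37 of 358 groups of 4 searched, namely 174 genes named above and 5 library measures in each stage. The cutoff flags about 1 in 20 groups of independent, normally distributed values. The genes here share libraries and were mostly named because they passed, so the 37 cannot be weighed against that rate. The November female accounts for 17 of the 37 and the March male for 10, and no explanation was tested.

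In catagen the November female was highest for ADAMTS10 (8.77), COL18A1 (181), ESRRA (28.1), FAM25A (280), FZD2 (24.5), IGFBP6 (63.1), KRT32 (209), LTBP3 (32.2), NOTCH3 (54.5), PTK7 (79.4), SPON2 (13.6), TSTD1 (140), WNT10B (6.19), WNT11 (43.3) and WNT6 (7.4). It was lowest for DHH (4.77) and RORA (57). In telogen the March male was highest for COL18A1 (90.8), COL4A1 (39.8), FBLN2 (14.6), LTBP3 (20.6), PTK7 (42.1), S1PR5 (24.9) and SOSTDC1 (74.8), and lowest for BMPR2 (63.1), TCF7L2 (28.5) and the first principal component (22.97).

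The other libraries that stood apart in catagen were the December female, highest for EGFR (112), FRZB (2.56) and MKI67 (15.4) and lowest in the ribosomal share of the signal (20.9%), the December male, highest for EDA2R (6.49), and the November male, highest for ENG (14.9). In telogen they were the March female, highest for KLK6 (69.2) and NR1D1 (18) and lowest for NTN1 (9.14), and the February male, highest for TGFB2 (33.4).

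The change from catagen to telogen differed between males and females in 3 genes, all with LOC numbers and outside the naming rule, by limma's interaction test over all genes. LOC108636589 had 3.15 and 5.26 in the catagen females, 0 in the catagen males, 0 in the telogen females and 9.23 and 2.69 in the telogen males; the male change exceeded the female change by 4.97 log2 (SE 0.539, adjusted p = 0.0209). LOC102173355 had 4.42 and 3.76 in the telogen males and was listed at 0 in the other libraries, a difference of 2.34 (SE 0.24, adjusted p = 0.0209). LOC102175234 had 6.18 and 5.63 in the telogen males and 0.20 to 0.36 in the other 6 catagen and telogen libraries, a difference of 2.28 (SE 0.273, adjusted p = 0.035). An exact 0 in such a file can be a failed estimate.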

How the results depend on the processing

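Of the 163 named genes that passed, 138 kept their call in every alternative tried for them and 25 lost it in 1 or more, most often without the November female. With 1 library left out, between 2952 and 4219 genes rose and between 2299 and 3407 fell, and among the listed regulators, receptors, secreted and matrix genes 118 to 180 rose and 60 to 114 fell, the 60 being without the November female. February alone against catagen gave 3653 rises and 2890 falls and March alone 1665 and 1448, each with 2 telogen libraries in place of 4. No other alternative moved these counts by more than 1.5 times, but falls outnumbered rises after quantile normalization (3145 against 3183), with the filter of 5 in 4 libraries (2769 against 2998) and after the span trend was subtracted (3096 against 3513). Among these alternatives 2 were chosen after seeing the data, as given above. The replicate number, which marks sex, as a block gave 3999 rises and 3075 falls and changed no call of a named gene. Deviations of same-numbered libraries from their stage means correlated at -0.154 to 0.241, and those of differently numbered libraries at -0.237 to 0.327. With so few libraries a stage, these values cannot decide whether same-numbered libraries came from the same animals. The median of all genes was 0.07 log2 as reported, 0.02 after quantile normalization and 0.11 after rescaling without ribosomal protein and mitochondrial genes.

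Of 11 named genes that did not pass, 6 (BMP2, BMP4, DKK1, FGF5, SFRP1 and WIF1) passed in 1 or more alternatives. VDR, BMP6 and FGF18, which did not pass, changed sign. VDR (-0.02) was at 0.07 after quantile normalization, 0.03 after rescaling, and 0.03 to 0.06 without the November, December or March female, the November female giving 0.04. BMP6 (-0.04) was at 0.03 without the November male, 0.04 without the February male, 0.05 without the March male and 0.04 without the November female and March male together. FGF18 (0.08) was at -0.10 after quantile normalization, -0.09 without the November male and -0.04 without the March male. The causes were not tested. Read depth is unknown, so no counting error or detection limit can be given for low genes such as FGF5, FGF18 and DKK1, and the number of libraries, 4 a stage, limits the precision.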
